A study of Mus musculus with 4 samples.

Results

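Synapsins, synucleins and the proteins that cycle synaptic vesicles were measured as transcripts in mouse visual cortex after the loss of 1 eye. Of 9 listed genes (Syn1, Syn2, Syp, Rab3a, Sv2b, Sncb, Dnm1, Amph and Pclo), 6 had a probe set of their own, meaning one whose only gene symbol in the annotation table of the array platform was that gene. In all, 8252 genes had one. These 6 genes had 8 of the 12488 probe sets on each array, namely 2 each for Rab3a and Dnm1 and 1 each for Syn2, Syp, Sncb and Pclo. No probe set carried the name of Syn1, Sv2b or Amph alone, so these 3 genes were not analysed here. Of the 8 probe sets, 7 were bright enough to test, and a dim one of Rab3a was not.

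All mice were wild-type C57Bl6 animals kept in the dark from birth, which lost 1 eye on postnatal day 42, then lived in a light-dark cycle for 4 days and were killed on postnatal day 46. Deprived means the cortex opposite the removed eye and non-deprived the cortex on its own side. Both sides had been reared in the dark, so no group had normal visual experience. The study used 5 mice, with tissue pooled within each side into 2 deprived and 2 non-deprived samples, each on 1 array. Nothing in the sources used here says how the mice were divided over the pools, so p-values measure the spread between these 4 arrays, which may be technical.

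A nerve terminal keeps a store of vesicles filled with transmitter. Synapsins tether vesicles in a reserve pool, Rab3a marks them for docking, large scaffold proteins such as piccolo hold the release site together, and after fusion dynamin cuts the membrane free again with the help of amphiphysin, so that vesicles can be refilled. Synapsins and synaptophysin are widely used to mark presynaptic terminals in cortex.

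Signals were made comparable between the arrays by scaling to the same trimmed mean, and the values below are these MAS5 signals, in arbitrary units on a linear scale. The median of the deposited signals ran from 189.9 to 245.7 over the 4 arrays. Averaged over its pairs with the others, the correlation of log2 signals was 0.91 for deprived replicate 1 and 0.93 for each of the other 3 arrays. The ratio of 5′ to 3′ signal, a sign of RNA integrity, was 0.544 and 0.463 for actin on deprived replicates 1 and 2, against 0.638 and 0.632 on non-deprived replicates 1 and 2. For Gapdh it was 0.745 and 0.689 against 0.875 and 1.07, so these 2 controls had lower ratios on both deprived arrays. For the transferrin receptor, whose 5′ probe set was dim (mean signal 51.8), it was 0.269 and 0.474 against 0.270 and 0.0758. The part of these ratios in the differences below was not tested. Of 5 tested markers of cortical pyramidal neurons, Tbr1, Nrgn, Cux2 and Neurod6 had log2 fold changes of 0.02, -0.02, 0.14 and -0.20. The fifth, the synaptic kinase gene Camk2a, averaged 864 on the deprived and 1379 on the non-deprived arrays without overlap, -0.62 on the log2 scale (adjusted p = 0.58 in limma), and -1.74 at its dimmer probe set (adjusted p = 0.29, or 0.033 with the replicate block). Camk2a was thus lower on the same arrays as Syn2.

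Of the listed genes, Syn2 had the smallest p and Syp the next, with both lower in deprived cortex and neither past the adjusted threshold. Syn2 encodes synapsin II, one of the phosphoproteins that hold vesicles in the reserve pool. Its signal was 1463 and 1687 on deprived replicates 1 and 2, and 2163 and 2766 on non-deprived replicates 1 and 2. Both deprived arrays lay below both non-deprived arrays, also within each same-numbered pair. The deprived mean was 1575 ± 158 and the non-deprived mean 2464 ± 427 (SD, n = 2 each), and the fit put deprived cortex 1.54-fold lower. In limma the log2 fold change, on the scale of log2(signal + 60.6), was -0.62 ± 0.18 (SE), with a 95% interval from -1.02 to -0.22. The unadjusted p was 0.0058 and the adjusted p 0.50 over 7458 probe sets, so Syn2 did not pass the threshold of 0.05. An exact two-sided permutation test of 2 arrays against 2 cannot give a p below 0.333 for any of these genes.

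The difference at Syn2 was present in each pair of a deprived with a non-deprived array. On the log2 scale it was -0.55 between the replicate 1 arrays and -0.69 between the replicate 2 arrays. Across numbers it was -0.89 for deprived replicate 1 against non-deprived replicate 2, and -0.35 for deprived replicate 2 against non-deprived replicate 1. Non-deprived replicate 2, the brightest array for Syn2, thus sets the larger values, and without it the log2 fold change was -0.45 with an unadjusted p of 0.099 in limma. With the replicate number as a block the adjusted p was 0.11. The block assumes that same-numbered arrays share animals, which the design text implies but does not state.

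Syp encodes synaptophysin, a membrane protein of the vesicle that is a common marker of presynaptic terminals. Its signal was 1750 and 2237 on deprived replicates 1 and 2, and 2341 and 2812 on non-deprived replicates 1 and 2. The groups did not overlap, but deprived replicate 2 came close to non-deprived replicate 1, with a log2 difference of -0.06 between them. The deprived mean was 1993 ± 345 and the non-deprived mean 2576 ± 333 (SD, n = 2 each). The log2 fold change was -0.36 ± 0.19 (SE), with a 95% interval from -0.77 to 0.04 that reaches past 0, an unadjusted p of 0.073 and an adjusted p of 0.94 in limma. Leaving out deprived replicate 1 moved it to -0.19, and leaving out non-deprived replicate 2 moved it to -0.24, so its size rests on these 2 arrays.

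**Figure D1:**
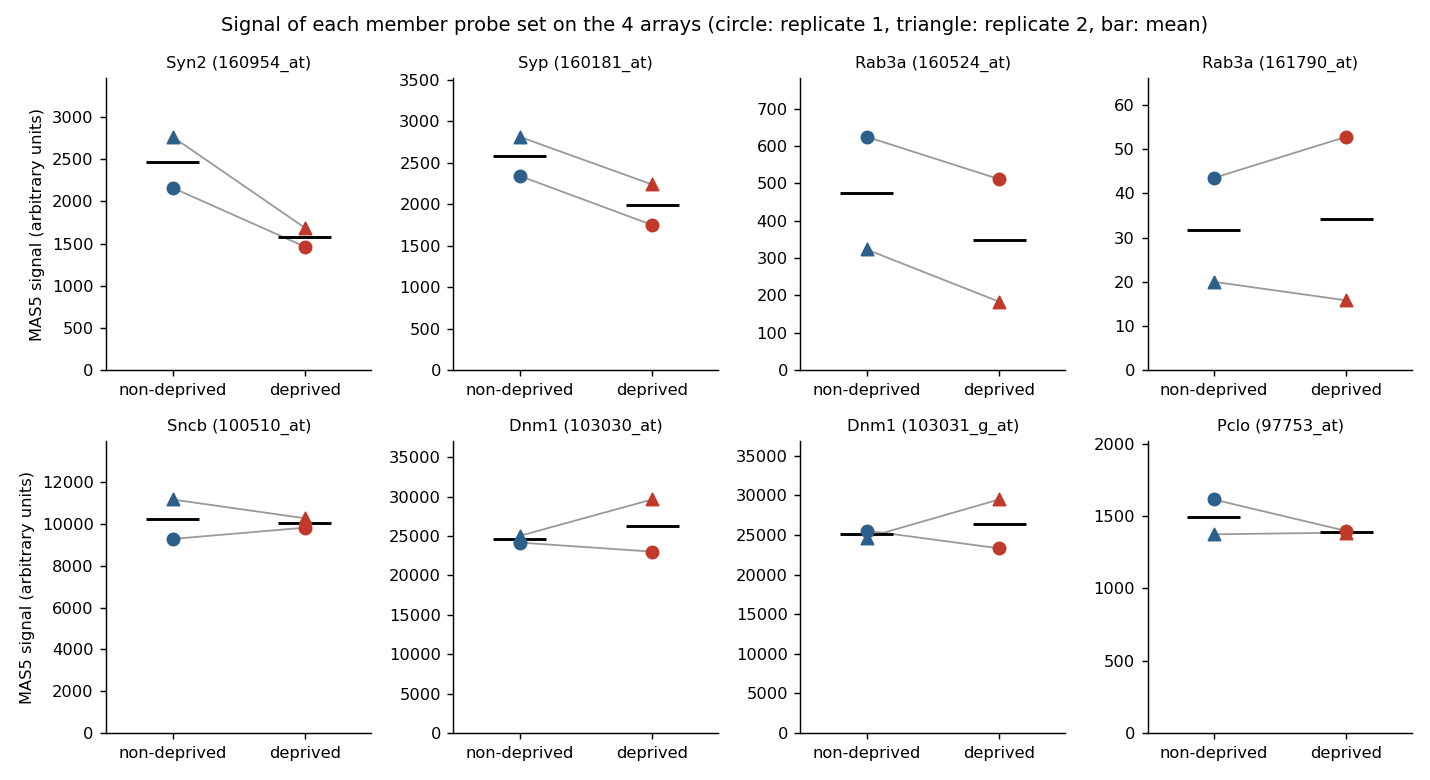
MAS5 signal in arbitrary units (vertical axes, each from 0) of the 8 probe sets on non-deprived (blue) and deprived (red) arrays; circles are replicate 1, triangles replicate 2, grey lines join arrays of the same number and black bars are means of 2 arrays. Syn2 and Syp are the 2 genes whose deprived points both lie below both non-deprived points, whereas those of the others overlap.

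Since Syn2 and Syp were the 2 genes whose groups did not overlap, the 250 bases before the start of each are shown, from RefSeq on GRCm38.p6. For Syn2 this is chr6:115134652-115134901, the first of 2 starts in the table, and for Syp chrX:7638330-7638579, both on the plus strand. Capitals mark matches on either strand to GGGCGG, the core of an Sp1 site, and to GCGGGGGCG, a form of the site read by Egr transcription factors.
Syn2: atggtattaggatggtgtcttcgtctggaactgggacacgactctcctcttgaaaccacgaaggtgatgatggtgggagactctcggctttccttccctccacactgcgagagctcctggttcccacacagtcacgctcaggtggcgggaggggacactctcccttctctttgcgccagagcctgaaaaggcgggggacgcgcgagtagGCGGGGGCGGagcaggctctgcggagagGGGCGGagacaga
Syp: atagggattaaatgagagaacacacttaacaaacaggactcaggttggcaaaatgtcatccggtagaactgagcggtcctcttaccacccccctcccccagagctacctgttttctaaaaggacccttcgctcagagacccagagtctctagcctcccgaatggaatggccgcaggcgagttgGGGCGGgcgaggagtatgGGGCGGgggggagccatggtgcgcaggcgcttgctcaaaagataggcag
Each window held 2 matches to GGGCGG, and 32.7% of all 32851 promoters of this length hold at least 1. The same number was found before Pclo and 1 start of Rab3a, with 1 before Sncb and 0 before Dnm1. The Syn2 window also held 1 match to GCGGGGGCG, beginning 41 bases before the start and overlapping one of its GGGCGG matches. That motif is in 2.57% of all promoters and was in no other window of the 6 genes. Neither window held TGACG, the short form of the cyclic AMP response element, which was found once each before Sncb and 1 start of Rab3a and is in 17.8% of all promoters. The other motifs searched on both strands, GCGTGGGCG, TGACGTCA and the AP-1 site TGANTCA, were in none of the 6 genes' windows and are in 0.536%, 1.55% and 6.75% of all promoters. These matches describe letters in a window and are no measure of binding.

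Rab3a encodes the small GTPase that rides on vesicles and is shed as they fuse. Its brighter probe set gave 511 and 183 on deprived replicates 1 and 2, and 625 and 323 on non-deprived replicates 1 and 2. Within each same-numbered pair the deprived array was lower, by 0.26 and 0.65 on the log2 scale, but the replicates differed more than the groups did. Both replicate 2 arrays were below both replicate 1 arrays. The log2 fold change was -0.46 ± 0.42 (SE), with a 95% interval from -1.37 to 0.46 and an adjusted p of 0.999 in limma, and it turned to 0.16 without deprived replicate 2. Without non-deprived replicate 1 it was -0.04, and it was -1.07 or -0.88 without deprived replicate 1 or non-deprived replicate 2. The dim probe set of Rab3a had signals between 15.8 and 52.8 on the 4 arrays, with a mean of 33.0 where 142.9 was needed for a test, and its groups overlapped.

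Sncb encodes beta-synuclein, an abundant protein of nerve terminals. It gave 9832 and 10283 on deprived replicates 1 and 2, and 9293 and 11183 on non-deprived replicates 1 and 2. Both deprived values lay between the non-deprived ones. The log2 fold change was -0.02 ± 0.20 (SE), and its 95% interval from -0.45 to 0.41 corresponds to a ratio of deprived to non-deprived between 0.733 and 1.33. The ratio estimated for Syn2, 0.651, lies outside that interval, but the 95% interval of Syn2, from 0.493 to 0.860, overlaps it. With a common median the SE at Sncb was 0.45. Whether the changes at Sncb and Syn2 differ was not tested. Sncg, which encodes gamma-synuclein, gave 0.12 on the log2 scale and did not pass (adjusted p = 0.999 in limma).

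Dnm1 encodes dynamin 1, the neuronal GTPase that pinches off vesicles. Its first probe set gave 23017 and 29637 on deprived replicates 1 and 2, and 24166 and 25017 on non-deprived replicates 1 and 2. The second probe set, drawn from the same source sequence, gave 23311 and 29484 against 25557 and 24671. At both, deprived replicate 2 was the highest array and deprived replicate 1 the lowest. The log2 fold changes were 0.09 ± 0.25 and 0.06 ± 0.25 (SE), with 95% intervals from -0.47 to 0.64 and from -0.49 to 0.61, and without deprived replicate 2 they were -0.09 and -0.11. After quantile normalization they were 0.19 and 0.15, the first at an unadjusted p of 0.023 and an adjusted p of 0.69 in limma. The 2 probe sets share their source sequence, so they count as 1 measurement of the gene.

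Pclo encodes piccolo, a giant scaffold protein of the active zone, the site where vesicles fuse. Its signal was 1396 and 1384 on deprived replicates 1 and 2, and 1613 and 1372 on non-deprived replicates 1 and 2. Only non-deprived replicate 1 stood apart from the other 3 arrays. The log2 fold change was -0.09 ± 0.18 (SE), with a 95% interval from -0.48 to 0.29, and without non-deprived replicate 1 it was 0.02.

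In sum 0 of the 7 tested probe sets passed at an adjusted p under 0.05 in limma, where 0.107% of all tested probe sets did. At an unadjusted p under 0.05 there was 1, that of Syn2, against 5.43% of all tested probe sets. Both Syn2 and Syp were lower without overlap between the groups, 2 of 7, against 17.1% of all tested probe sets, and 0 were higher without overlap, against 15.1%. Within both same-numbered pairs 3 of the 7 were lower, those of Syn2, Syp and Rab3a, against 26.5% of all tested probe sets. The log2 fold change was below 0 at 5 of the 7, against 49.7% of all tested probe sets. The median of the 7 was -0.09, beside 0.0017 over all tested probe sets. Dnm1 fills 2 of the 7 in each of these counts and in the median, although its probe sets count as 1 measurement. With so few probe sets these shares describe the genes and set them apart from nothing. With the replicate block 2 of the 7, Syn2 and Syp, were lower at an unadjusted p under 0.05 in limma, against 5.63% of all tested probe sets, and again 0 passed when adjusted.

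**Figure D2:**
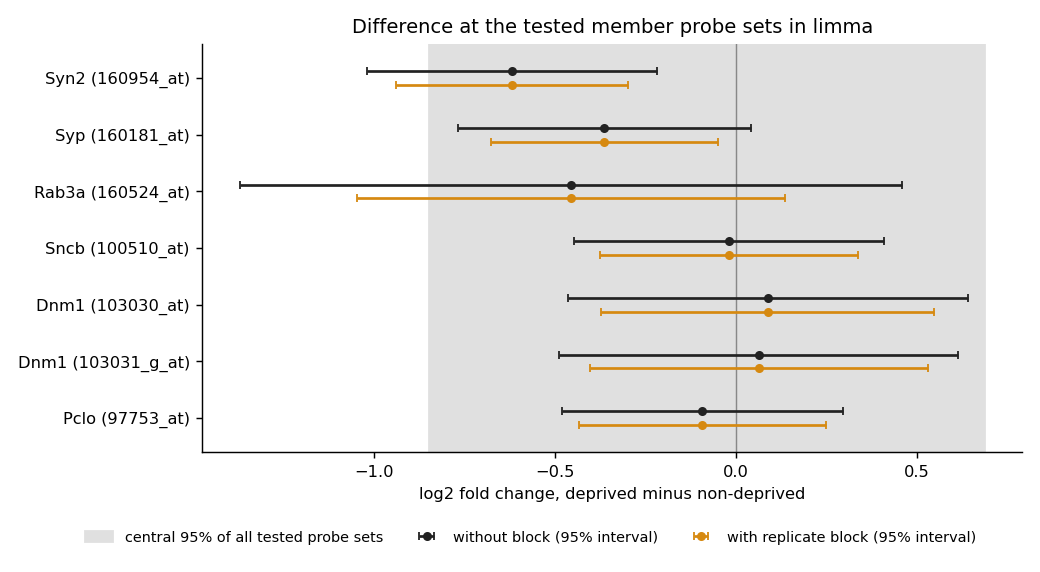
Log2 fold change (horizontal axis, deprived minus non-deprived) of the 7 tested probe sets with 95% intervals from limma, without (black) and with (orange) the replicate number as a block; the grey band holds the central 95% of all tested probe sets, from -0.85 to 0.69. All 7 points lie in the band, and the interval of Syn2 lies below 0 in both fits.

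Ratios within an array do not depend on a common scaling of that array. Syn2 and Syp, the genes whose groups did not overlap, were the numerators, so the ratios are not independent of the differences above. The log2 ratio of the Syn2 to the Sncb signal was -2.75 and -2.61 on the deprived arrays and -2.10 and -2.02 on the non-deprived arrays. For Syn2 over Dnm1, at its first probe set, it was -3.98 and -4.13 against -3.48 and -3.18. Neither ratio overlapped between the groups, with Syn2 lower against both genes on both deprived arrays. The same held for Syp over Sncb, at -2.49 and -2.20 against -1.99 and -1.99, while Syp over Pclo overlapped. Against Rab3a both ratios overlapped, at 1.52 and 3.20 on the deprived and 1.79 and 3.10 on the non-deprived arrays for Syn2, and at 1.78 and 3.61 against 1.91 and 3.12 for Syp, whose mean ratio was higher in deprived cortex. Syn2 over Syp was also lower on both deprived arrays, at -0.26 and -0.41 against -0.11 and -0.02.

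The pattern of Syn2 over the 4 arrays was set beside those of 6707 other named probe sets, as the root mean square difference of log2 values centred on each probe set's mean. The nearest was Cplx1, which encodes complexin 1, a clamp on the fusion machinery, at 0.021. Cplx1 had signals of 2639 and 3076 on the deprived and 3831 and 4816 on the non-deprived arrays. Next came a probe set of Gadd45b, a stress-inducible gene, at 0.028 and one of Plcb1, a phospholipase C, at 0.029. For Dnm1, at its first probe set, the nearest were Bpnt2 at 0.0098, Dynll1 at 0.015 and Tcp10b at 0.016. With 4 arrays and 6707 candidates, near matches are easily found.

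Beyond the listed genes, 94 other genes of the vesicle cycle were taken by role, of which 58 were tested by their brightest probe set. Of these, 36 were lower and 22 higher in deprived cortex, with a median log2 fold change of -0.05 beside 0.0017 for all tested probe sets. The lower ones made up 62.1%, against 49.7% of all tested probe sets, a share that also stands beside the counts by role below. The calcium sensor Syt1 was the 1 that fell at an adjusted p under 0.05 in limma (0.0023), and 0 rose. At an unadjusted p under 0.05 there were 11 lower and 1 higher, where 3.66% and 1.77% of all tested probe sets were. These lists were drawn up with earlier results of these data known, so the counts are not independent evidence of a direction.

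Among other vesicle membrane proteins, 8 of 10 were lower, with a median of -0.20. Syngr1, which encodes the synaptophysin relative synaptogyrin 1, gave 601 and 685 on the deprived arrays and 1003 and 1450 on the non-deprived arrays. Its log2 fold change was -0.85 ± 0.22 (SE), with an adjusted p of 0.37 in limma. Atp6v0a1, a subunit of the proton pump that energises transmitter loading, gave 975 and 1338 against 1800 and 2668, a log2 fold change of -0.90 ± 0.22. Its adjusted p was 0.29 in limma, or 0.018 with the replicate block. Dnajc5, the vesicle chaperone known as cysteine string protein, stood at -0.91 ± 0.27 with an adjusted p of 0.48. The groups of Syngr1, Atp6v0a1 and Dnajc5 did not overlap, where 17.1% of all tested probe sets were lower without overlap. At their brightest probe sets 2 other pump subunits lay near 0, Atp6v1b2 at 0.01 and Atp6v0d1 at -0.08. A dimmer probe set of Atp6v1b2 stood at -0.25.

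Genes of endocytosis were divided around Dnm1. Of the 22 others tested, 12 were lower and 10 higher, with a median of -0.01. This division rests on the brightest probe set of each gene. Bin1, Ap2a2 and Clta, counted as higher at 0.34, 0.10 and 0.02, stood at -0.23, -0.39 and -0.48 at a dimmer one. Ap2m1 was higher at both, at 0.05 and 0.33. Ppp3cb, a catalytic subunit of calcineurin, the phosphatase that acts on dynamin, gave 372 and 431 on the deprived and 866 and 789 on the non-deprived arrays. On the log2 scale it stood at -0.94 ± 0.23 (SE; adjusted p = 0.29 in limma). Its sister subunit Ppp3ca gave 0.24. The adaptor subunit Ap2b1 stood at -1.06 ± 0.36 (adjusted p = 0.62) and endophilin 3, from Sh3gl3, at 0.57 ± 0.22 (adjusted p = 0.80), neither past the threshold. Snap91 and Cltc, which encode the clathrin assembly protein AP180 and the clathrin heavy chain, lay at -0.0048 and -0.06. Dnm2, the ubiquitous dynamin, stood at -0.76 ± 0.34 with an adjusted p of 0.91.

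Bsn, which encodes bassoon, the scaffold protein most like piccolo, is named beside it. Its signals were 159 and 49.7 on the deprived arrays and 334 and 372 on the non-deprived arrays, without overlap. It passed the filter on dim probe sets only through the non-deprived arrays, since its deprived mean of 105 lay below 142.9, so its fold change depends on the added constant and is not given. The same holds for Vamp1, a vesicle SNARE, with means of 105 and 260, and both stand in the counts of lower genes. Of the 5 active zone genes tested besides Pclo, 4 were lower and 1 higher, with a median of -0.07. Around Rab3a, 2 of 6 others were lower and 4 higher, with a median of 0.09, and Rab3b gave 0.27.

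Among 14 genes of the fusion machinery, which acts on vesicles once they dock, 10 were lower and 4 higher, with a median of -0.24. Syt1 fell from 2944 and 3520 on the non-deprived arrays to 899 and 785 on the deprived arrays, a log2 fold change of -1.86 ± 0.18 (SE). Syt11 and Cplx1 stood at -0.61 ± 0.18 and -0.58 ± 0.18, close to Syn2, with adjusted p of 0.51 and 0.53 in limma. Nsf, the ATPase that takes used fusion complexes apart, is named after its values were seen. It stood at -1.12 ± 0.39 with an adjusted p of 0.67, its groups overlapped, and with the replicate block its adjusted p was 0.013. With the block 3 of the 64 vesicle cycle genes, listed ones included, passed (Syt1, Nsf and Atp6v0a1), against 0.536% of all tested probe sets. Vamp2, a vesicle SNARE, gave -0.09 at the brighter probe set that stood for it and -1.20 ± 0.21 (SE) at the other, where the adjusted p was 0.065 in limma, or 0.013 with the block. Napb, counted as higher at 0.25, stood at -0.59 at its dimmer probe set, while Syt2 was higher at both, at 0.06 and 0.27.

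**Figure D3:**
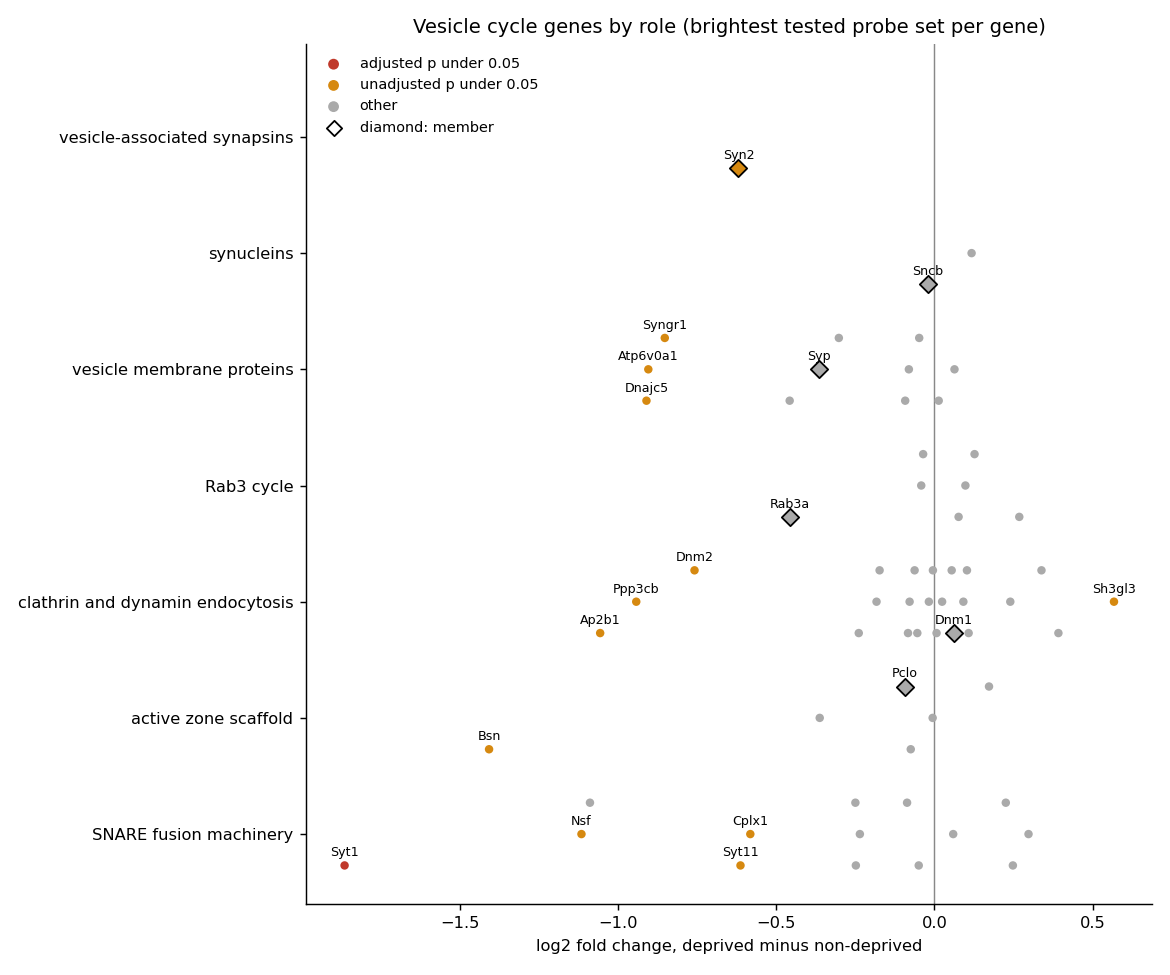
Log2 fold change (horizontal axis, deprived minus non-deprived) of vesicle cycle genes by role, 1 point per gene at its brightest tested probe set; diamonds are Syn2, Sncb, Syp, Rab3a, Dnm1 and Pclo, red marks an adjusted and orange an unadjusted p under 0.05 in limma. Syt1 is the 1 red point at -1.86, most of the orange points lie left of 0, and endocytosis genes lie on both sides. Bsn and Vamp1 are plotted although they passed the filter only through the non-deprived arrays.

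Markers of cell types were set beside these values, as summed signals of the tested markers in each list. For 8 inhibitory neuron markers (of 8 listed) they ran from 16072 to 19200 on the deprived arrays. On the non-deprived arrays they ran from 19347 to 21015, without overlap, but without Vip these sums do overlap. Vip passed the filter on dim probe sets only through the non-deprived arrays, with means of 84.5 (deprived) and 272 (non-deprived). Of the 8 inhibitory markers, 6 were lower and 2 higher in deprived cortex. The sums of 6 of 8 myelin markers ran from 13403 to 14436 and from 11152 to 12105, higher on both deprived arrays. Mobp had the largest part in that gap, with means of 4714 and 3393 at its brightest probe set, although on the log2 scale the 3 dimmer ones for this gene stood at -0.14, -0.59 and -0.64. Without Mobp the sums ran from 8828 to 9582 on the deprived and from 8072 to 8399 on the non-deprived arrays. The other sums overlapped. They were 12683 to 15914 on deprived against 14220 to 15556 on non-deprived arrays for 5 of 10 pyramidal neuron markers, and 14514 to 16375 against 15098 to 16289 for 7 of 8 astrocyte markers. For 7 of 8 microglia markers they were 6166 to 6711 against 6354 to 6675, for 4 of 8 endothelial markers 901 to 1215 against 972 to 980.5, and for 5 of 9 markers of neighbouring striatum, thalamus and choroid plexus 2877 to 3872 against 2783 to 2927. In that last list deprived replicate 1 was the high array. No marker probe set was at 0 on any array. In bulk tissue, fewer cells of a type and less RNA per cell cannot be told apart, and the part of these markers in the differences at Syn2 and Syp was not tested.

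Across 12 other ways of processing, Syn2 stayed below 0, from -0.79 to -0.45, and so did Syp, from -0.54 to -0.19. The lowest adjusted p over these settings was 0.085 for Syn2 and 0.21 for Syp in limma, so neither passed in any. Sncb, Dnm1, Pclo and Rab3a each took both signs. Among the 12, changes of the filter, the variance model or the block leave the log2 fold change itself as it is. Those settings therefore say nothing on its sign or size. For Syn2 and Syp, whose groups did not overlap, leaving out 1 array or changing the pseudocount could not turn the sign either. Only the changes of scaling could have done so for these genes. Syn2 stood at -0.60 both after quantile normalization and with a common median, and Syp at -0.36 and -0.34.

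**Figure D4:**
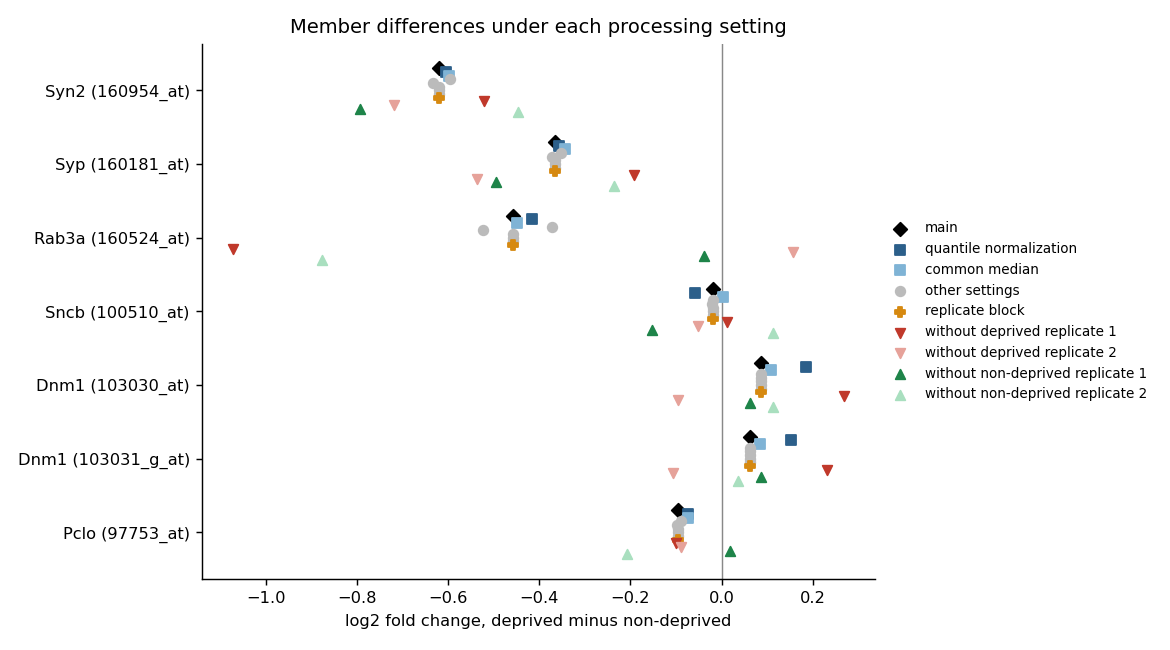
Log2 fold change (horizontal axis, deprived minus non-deprived) of the 7 tested probe sets under the reported processing (black diamond) and 12 alternatives, with triangles for fits that leave out 1 array. Syn2 and Syp lie left of 0 throughout, which only the changes of scaling could have altered, since their groups do not overlap. Rab3a spreads from -1.07 to 0.16 according to the array left out.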

How the data were processed

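RNA from 4 pools of visual cortex was read on 1-colour arrays from about 10 µg of total RNA each. Per the submitters' processing notes the authors used MAS5, and what they deposited is 1 linear intensity per probe set. The version of MAS5, its scaling target and its detection calls are not given in the sources used here. Arrays were scaled to the same 2% trimmed mean, 60.6 (the 20th percentile of mean signals) was added and log2 taken, which understates changes of dim probe sets. Probe sets with a mean below the 40th percentile, 142.9, and 66 controls were left out, which kept 7458. limma 3.58.1 in R 4.3.3 (lmFit, eBayes with trend) compared the groups, two-sided, with Benjamini-Hochberg adjustment over all 7458. The fit had 2 residual degrees of freedom, 11.6 with the prior. It was checked on simulated data with independent noise between arrays and residual spreads shuffled over probe sets. That check does not cover a variance trend or a correlation of same-numbered arrays. The number of arrays limits the precision.

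The design text speaks of cross-animal comparisons, which implies but does not state that same-numbered arrays share animals; no label ties the numbers to an animal or day. Their deviations correlated with r = 0.27, which over 2 pairs does not settle it. The unblocked fit is the reported one, and blocked values hold only if the numbers pair the arrays. Blocked fits rest mostly on the variance prior (13.2 degrees of freedom in all). Symbols were updated by Entrez identifier through RefSeq (GRCm38.p6), which matched 10839 of 10855. The genes and lists were chosen with earlier results of these data known. All probe sets of the listed genes were named. So were up to 3 genes per vesicle list at an unadjusted p under 0.05 and any past the adjusted threshold. Ppp3ca, Snap91, Cltc, Dnm2, Rab3b, Sncg, Nsf, Atp6v1b2, Atp6v0d1, Vamp1, Vamp2, Mobp and Vip were named after their values were seen. The same holds for Bin1, Ap2a2, Ap2m1, Clta, Napb, Syt2 and Slc1a2. Also named were the 3 genes nearest in pattern to the listed probe set of smallest p in each direction. Alternatives changed the scaling, pseudocount, filter, variance model, block or arrays used. Probe positions were not analysed here.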

Additional observations from a re-analysis of the deposited data

How the results depend on the processing

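The 2 arrays per group limit every value above. The count of 0 listed probe sets past the adjusted threshold stayed at 0 in each of 12 alternatives. The count of all tested probe sets past it, 8, became 1 after quantile normalization, 3 with a common median, 0 without the variance trend (390 at an unadjusted p under 0.05) and 40 with the replicate block, and with 1 array left out it ran from 5 to 90. The count of listed probe sets at an unadjusted p under 0.05, 1, became 3 after quantile normalization (Syn2 and Syp lower, and 1 probe set of Dnm1 higher at 0.19), 0 with a common median and 2 with the replicate block, and ran from 0 to 2 with 1 array left out (0 without non-deprived replicate 2). The number lower in all pairs of arrays, 2, became 1 with a common median and 3 with the replicate block, where only same-numbered pairs had to agree, and ran from 3 to 4 with 1 array left out, where fewer pairs had to agree. The median of the listed probe sets, -0.094, ran from -0.21 (without non-deprived replicate 2) to -0.039 with 1 array left out. Vesicle cycle genes past the adjusted threshold, 1, became 0 without the trend and 3 with the replicate block, and ran from 1 to 5 with 1 array left out; those at an unadjusted p under 0.05, 13, became 8 with a common median and 17 with the replicate block, and ran from 7 to 17 with 1 array left out.

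Settings that changed only the filter, variance model or block left each log2 fold change as it was and could not turn a sign. For Syn2 and Syp, whose groups did not overlap, neither could a change of pseudocount or an array left out. Of 84 values of single listed probe sets, these settings included, 77 kept their direction and side of the threshold and 7 turned sign. These were Rab3a (0.157), Dnm1 (-0.095 and -0.107) without deprived replicate 2, Sncb with a common median (0.0022), without deprived replicate 1 (0.012) and without non-deprived replicate 2 (0.113), and Pclo without non-deprived replicate 1 (0.018). With 1 array left out Rab3a ran from -1.07 to 0.157, Sncb from -0.152 to 0.113, the Dnm1 probe sets from -0.095 to 0.269 and from -0.107 to 0.231, and Pclo from -0.206 to 0.018. Apart from the array left out, the cause was not tested. The replicate block moved no listed probe set past the adjusted threshold. It also moved the dimmer probe sets of Vamp2 (adjusted p = 0.013) and Camk2a (0.033) past it.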
